A study of Mus musculus with 6 samples.

Results

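The immunoglobulin heavy chain V genes (Ighv) were taken as the rows whose mouse symbol starts with Ighv and whose estimated counts sum to 10 or more over the 6 libraries. By that rule 27 genes were members, out of 76 Ighv rows and 13685 rows in all. Of the other Ighv rows, 7 held fewer than 10 counts and 42 were at 0 in every library. The members were chosen by their summed counts over both groups, so that these genes were detected at all is a description and not a finding.

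The study asked how gene expression changes when the unfolded protein response is activated with drugs, and compared 3 tunicamycin libraries with 3 vehicle libraries. Both groups were wild-type (WT) CD4+ T cells from C57BL/6 mice, isolated with a kit from spleen and mesenteric lymph node, of which the CD25-negative, non-regulatory cells were kept for 4 h in culture at 1000000 cells per well. The tunicamycin cells received 0.15 µg/mL of tunicamycin, which blocks N-linked glycosylation of proteins in the endoplasmic reticulum. The control cells received vehicle, although their titles call them untreated. The labels call the replicates technical, put all libraries in the same batch and give neither the age nor the number of the mice, so a p-value here measures only the spread between these libraries.

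A heavy chain variable region is assembled in developing B cells, when recombination joins 1 V gene to a D and a J segment on the same chromosome. Each B cell and its progeny then transcribe mainly the V gene that was joined, spliced to a constant gene such as Igha, and plasma cells, the antibody-secreting descendants of B cells, hold this RNA in very large amounts. In a mixed sample the V genes seen therefore depend on which B-lineage cells are present, and in bulk RNA fewer such cells and less RNA per cell cannot be told apart. T cells do not assemble heavy chain genes completely.

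The mouse V genes fall into families of related sequence and lie in 1 cluster. In the GENCODE M21 annotation of GRCm38, 185 Ighv genes, of which 113 are annotated as functional V genes and 70 as pseudogenes, span chr12:113572927-116010093. The files were made on GRCm39, and positions are given here on GRCm38 without conversion. Of the annotated genes 76 had a row here, 54 of them functional, so V genes without a row enter no share below. Shares of Ighv TPM or Ighv counts are of the sum over the 27 members. All 27 members are annotated as functional V genes. By rank along the chromosome, 15 members lie among the 92 genes nearest to the D segments, and 12 among the 93 genes farther away, which begin at base 114646572.

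The 6 V exons below are each shown as the last 300 bases of the exon on the minus strand of GRCm38. They are the genes that led the libraries and their close relatives in sequence. The first are the 2 members of the Ighv10 family, Ighv10-1 (chr12:114479005-114479304) and Ighv10-3 (chr12:114523441-114523740), with capitals at the 10 positions at which they differ.
Ighv10-1: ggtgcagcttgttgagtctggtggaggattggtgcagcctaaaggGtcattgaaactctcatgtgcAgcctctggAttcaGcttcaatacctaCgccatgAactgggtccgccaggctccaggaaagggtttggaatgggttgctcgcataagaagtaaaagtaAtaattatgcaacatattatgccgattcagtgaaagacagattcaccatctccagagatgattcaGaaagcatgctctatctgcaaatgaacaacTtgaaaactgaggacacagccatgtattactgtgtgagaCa
Ighv10-3: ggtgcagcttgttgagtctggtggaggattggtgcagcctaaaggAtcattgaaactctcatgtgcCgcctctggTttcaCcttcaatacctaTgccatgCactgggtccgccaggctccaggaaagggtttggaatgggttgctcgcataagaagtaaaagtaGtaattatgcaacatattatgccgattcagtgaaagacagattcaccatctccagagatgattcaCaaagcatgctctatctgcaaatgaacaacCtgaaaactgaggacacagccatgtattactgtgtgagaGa
These exons were 96.7% identical over the 300 bases.

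The next are the 3 members of the Ighv1 family with the highest mean shares, Ighv1-53 (chr12:115158403-115158702), Ighv1-55 (chr12:115208095-115208394) and Ighv1-64 (chr12:115507545-115507844). Capitals mark the 21 positions at which the 3 are not all the same, and the pairs were 95 to 95.3% identical.
Ighv1-53: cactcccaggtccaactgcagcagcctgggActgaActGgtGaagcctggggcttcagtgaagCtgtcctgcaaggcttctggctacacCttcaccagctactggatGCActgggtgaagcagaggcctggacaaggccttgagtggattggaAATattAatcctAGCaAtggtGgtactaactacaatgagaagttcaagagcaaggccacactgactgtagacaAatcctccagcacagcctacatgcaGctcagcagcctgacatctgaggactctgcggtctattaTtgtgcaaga
Ighv1-55: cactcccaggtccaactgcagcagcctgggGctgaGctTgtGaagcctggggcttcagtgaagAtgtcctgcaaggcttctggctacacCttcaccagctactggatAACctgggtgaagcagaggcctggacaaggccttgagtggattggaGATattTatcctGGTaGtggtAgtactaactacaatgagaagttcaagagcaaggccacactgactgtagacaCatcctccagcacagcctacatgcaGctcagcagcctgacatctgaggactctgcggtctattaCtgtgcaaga
Ighv1-64: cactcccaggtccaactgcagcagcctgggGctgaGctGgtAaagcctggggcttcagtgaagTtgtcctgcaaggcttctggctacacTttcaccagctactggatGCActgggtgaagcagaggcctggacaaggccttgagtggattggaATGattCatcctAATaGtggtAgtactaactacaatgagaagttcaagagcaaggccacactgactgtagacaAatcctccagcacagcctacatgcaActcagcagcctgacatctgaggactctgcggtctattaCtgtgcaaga
The last is Ighv7-1 (chr12:113896408-113896707), with the letters TGTGCNAGA in capitals.
Ighv7-1: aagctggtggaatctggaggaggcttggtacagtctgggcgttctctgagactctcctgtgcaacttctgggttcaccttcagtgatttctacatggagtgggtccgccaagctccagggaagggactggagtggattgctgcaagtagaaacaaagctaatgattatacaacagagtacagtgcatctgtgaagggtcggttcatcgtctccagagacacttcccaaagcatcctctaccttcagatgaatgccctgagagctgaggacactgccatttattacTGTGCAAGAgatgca
This run of letters, in which N is any base, holds the codon of the conserved cysteine that ends the V-encoded framework and begins the antigen-contacting CDR3 loop. Searched on both strands of the V exon, it was found in 20 of the 27 members (74.1%) and in 100 of the 185 annotated Ighv genes (54.1%). The 185 include 70 pseudogenes and the members include none, so these shares are of unlike sets. A match describes the letters only.

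Closely related V genes share reads. A median of 57.3% of the 31-base stretches of a member's transcript occurred in no other annotated Ighv transcript, with a range from 7.76% for Ighv1-62-2 to 100% for Ighv13-2, and 10 members were under 50%. Of the 26 members that could be compared with a gene of the same exon length, 15 were at least 95% identical to another. Ighv1-62-2 and Ighv1-71 were identical over 300 of 300 bases, and in tunicamycin replicate 2 their estimated counts of 49.5 and 6.49 summed to 56, so how the reads divide between these 2 genes is uncertain. Of the 77 member values above 0, 10 values in 7 genes were not whole numbers within 0.01.

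The libraries held 10584240, 11211225 and 10868763 estimated counts with tunicamycin, and 7412116, 7618347 and 9495674 with vehicle, over the rows given. The Ighv members took 312, 486 and 109 of these counts in the tunicamycin libraries, against 197, 525 and 120 in the vehicle libraries. They were thus 0.00100% to 0.00433% of the counts with tunicamycin and 0.00126% to 0.00689% with vehicle. At these depths 3 counts, the limit that a count of 0 allows, are 0.962%, 0.619% and 2.75% of a tunicamycin library's Ighv counts and 1.52%, 0.571% and 2.5% of a vehicle library's. Limits and intervals cover counting error only.

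Detection was patchy. Of 162 member values, 77 were above 0 and 85 were 0. Ighv1-55 was the member with counts in all 6 libraries, while 3 members had counts in 5 libraries, 5 in 4, 6 in 3, 6 in 2 and 6 in 1. Counts in both groups were found for 18 members. The 7 members with counts in tunicamycin libraries alone were Ighv9-4, Ighv14-3, Ighv1-62-2, Ighv1-63, Ighv14-4, Ighv1-58 and Ighv1-5, and the 2 in vehicle libraries alone were Ighv1-47 and Ighv3-5. These 9 were named after their values were seen, and 6 of them had counts in 1 library and 3 in 2, so the split lies among sparse values.

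**Figure D1:**
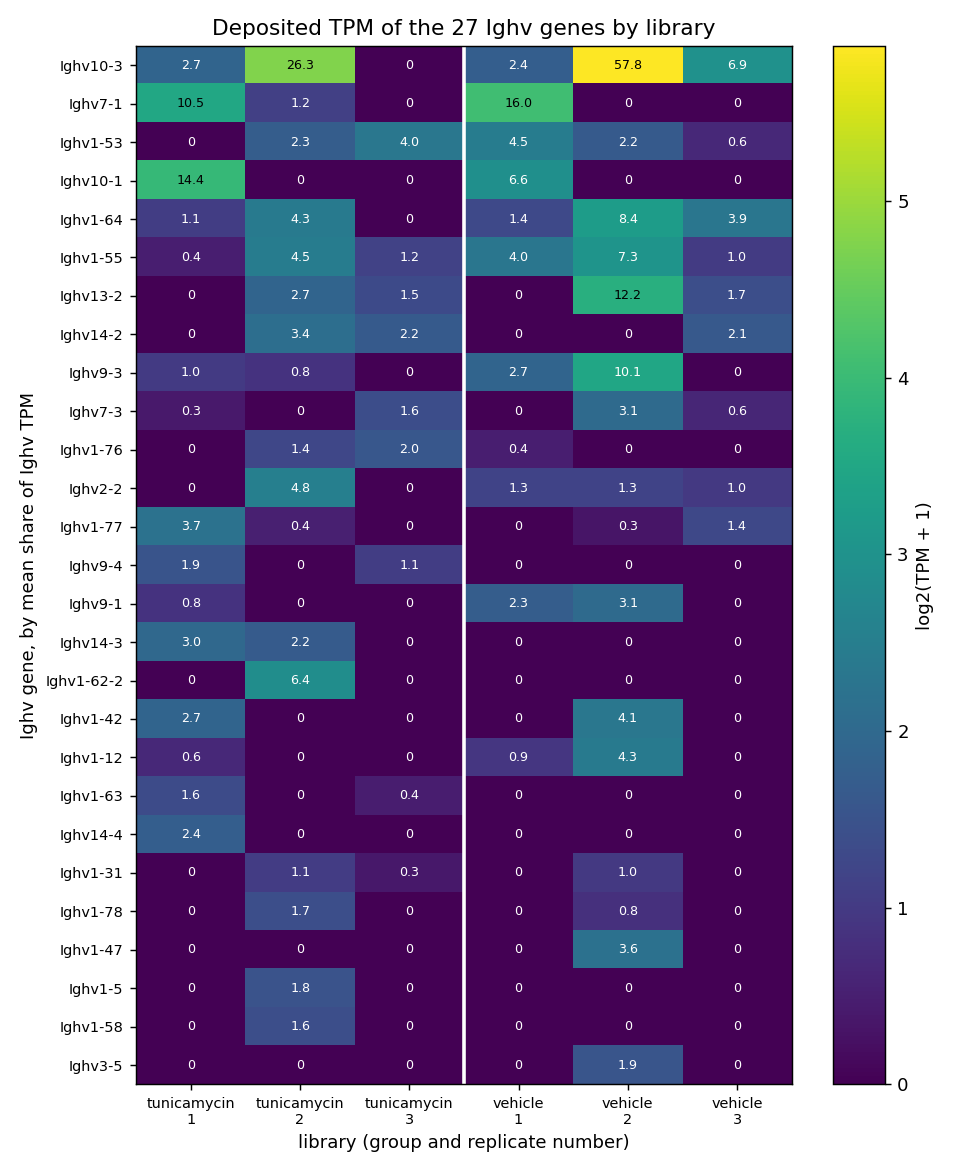
Deposited TPM of the 27 Ighv genes (rows, by mean share of Ighv TPM) in the 3 tunicamycin libraries and the 3 vehicle libraries (columns); colour is log2(TPM + 1) and each cell prints the TPM. Ighv10-3 reached 26.3 TPM in tunicamycin replicate 2 and 57.8 TPM in vehicle replicate 2, and 85 of the 162 cells are 0.

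The Ighv10 genes led 4 of the 6 libraries. Ighv10-3 had 2.73, 26.3 and 0 TPM in tunicamycin replicates 1, 2 and 3, against 2.37, 57.8 and 6.86 TPM in vehicle replicates 1, 2 and 3. As a share of the summed TPM of the 27 members this was 5.81%, 39.3% and 0% with tunicamycin, against 5.58%, 47.7% and 35.8% with vehicle. Its neighbour in sequence, Ighv10-1, had 14.4, 0 and 0 TPM with tunicamycin and 6.59, 0 and 0 TPM with vehicle. Ighv10-1 thus appeared in replicate 1 of each group, and Ighv10-3 was highest in replicate 2 of each, with the groups overlapping for both genes.

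Ighv7-1 followed the pattern of Ighv10-1. It had 10.5, 1.15 and 0 TPM in the tunicamycin libraries, against 16.0, 0 and 0 TPM in the vehicle libraries. Its counts were 70, 8 and 0 with tunicamycin and 70, 0 and 0 with vehicle, so nearly all of them came from the 2 libraries numbered 1. Ighv7-3, the other Ighv7 member, had 0.317, 0 and 1.61 TPM with tunicamycin and 0, 3.12 and 0.558 TPM with vehicle, with its highest values in other libraries.

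The Ighv1 family, by far the most numerous in the mouse locus, supplied 14 members. Ighv1-53 had 0, 2.31 and 4.04 TPM with tunicamycin, against 4.50, 2.17 and 0.608 TPM with vehicle. Ighv1-64 had 1.09, 4.28 and 0 TPM with tunicamycin, against 1.44, 8.44 and 3.93 TPM with vehicle. Ighv1-55 had 0.404, 4.54 and 1.22 TPM with tunicamycin, against 3.98, 7.28 and 1.05 TPM with vehicle. None of these 3 separated the groups. Ighv1-53 and Ighv1-55 were lowest in tunicamycin replicate 1, and Ighv1-64 was lowest in tunicamycin replicate 3. Among the rest of the family, Ighv1-76 had 0, 1.38 and 2.04 TPM with tunicamycin and 0.409, 0 and 0 TPM with vehicle. Ighv1-77 had 3.68, 0.427 and 0 TPM with tunicamycin and 0, 0.258 and 1.43 TPM with vehicle. The largest value of a gene seen in 1 library was 6.39 TPM, of Ighv1-62-2 in tunicamycin replicate 2.

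The smaller families were as uneven. Ighv13-2 had 0, 2.72 and 1.51 TPM with tunicamycin, against 0, 12.2 and 1.66 TPM with vehicle. Ighv14-2 had 0, 3.38 and 2.16 TPM with tunicamycin, against 0, 0 and 2.10 TPM with vehicle. Ighv9-3 had 0.987, 0.805 and 0 TPM with tunicamycin, against 2.74, 10.1 and 0 TPM with vehicle. All 3 were at 0 in at least 1 library of each group. Ighv2-2 had 0, 4.82 and 0 TPM with tunicamycin, against 1.27, 1.26 and 0.972 TPM with vehicle. Ighv9-1 had 0.825, 0 and 0 TPM with tunicamycin and 2.31, 3.08 and 0 TPM with vehicle. Ighv9-4 had 1.86, 0 and 1.10 TPM with tunicamycin and 0 in the vehicle libraries. Just inside the limit of 10 summed counts were Ighv3-5 with 10, Ighv1-5 with 11 and Ighv1-58 with 12, and just outside were Ighv7-4 with 8, Ighv1-82 with 7 and Ighv1-71 with 6.49.

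Each library was led by 1 or a few genes, and the 6 libraries had 4 different leaders. In tunicamycin replicate 1 Ighv10-1 took 25.3% of the Ighv counts (95% Clopper-Pearson interval 20.6 to 30.5%), in replicate 2 Ighv10-3 took 33.4% (29.2 to 37.8%), and in replicate 3 Ighv1-53 took 30.3% (21.8 to 39.8%). In vehicle replicate 1 Ighv7-1 took 35.5% (28.9 to 42.6%), and Ighv10-3 took 42.9% (38.6 to 47.2%) in replicate 2 and 28.3% (20.5 to 37.3%) in replicate 3. Ighv10-3 in tunicamycin replicate 3 and Ighv10-1 in 4 libraries were at 0 counts, where the upper bound of the same interval was 3.33% in tunicamycin replicate 3, 3.03% in vehicle replicate 3, 0.758% in tunicamycin replicate 2 and 0.700% in vehicle replicate 2. The leader differed between the 3 tunicamycin libraries, while vehicle replicates 2 and 3 shared Ighv10-3. The shares of these named genes were not tested, because the genes were named for leading a library. The largest share in each library, whichever gene held it, was compared between the groups and is given below.

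By family, Ighv1 held 21.4%, 38.2% and 55.6% of the Ighv TPM in the tunicamycin libraries, against 26.5%, 26.2% and 36.6% in the vehicle libraries. Over 3 libraries each, the mean ± SD was 38.4 ± 17.1% with tunicamycin and 29.8 ± 5.94% with vehicle. The gap of 8.62 percentage points gave p = 0.6 in a two-sided exact permutation test, with an adjusted p of 0.8 over 6 summary measures. Without tunicamycin replicate 3 the difference was 0.0135 points. The 12 members farther from the D segments, all of them Ighv1 genes, held 20.1%, 35.5% and 55.6% with tunicamycin, against 24.3%, 22.6% and 36.6% with vehicle. That difference was 9.19 points (exact permutation p = 0.7, adjusted p = 0.8) and -0.0781 points without tunicamycin replicate 3, so neither measure separated the groups.

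The Ighv10 family held 36.4%, 39.3% and 0% with tunicamycin, against 21.1%, 47.7% and 35.8% with vehicle. Ighv7 held 23.1%, 1.72% and 11.2% with tunicamycin, against 37.6%, 2.57% and 2.91% with vehicle. Ighv9 held 7.81%, 1.20% and 7.68% with tunicamycin, against 11.9%, 10.9% and 0% with vehicle. These shares overlapped between the groups. Ighv14 was in every tunicamycin library at 11.3%, 8.37% and 15.02%, and in the vehicle libraries at 0%, 0% and 10.95% (exact permutation p = 0.2). Of its 3 members, Ighv14-3 and Ighv14-4 had counts with tunicamycin alone and met the member rule through that group. They supplied the whole share in tunicamycin replicate 1, at 6.28% and 5.06%. The Ighv14 shares are thus no support for a difference. Over the 5 families with at least 2 members every adjusted p was 0.8, and 3 against 3 libraries cannot give a p below 0.1.

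**Figure D2:**
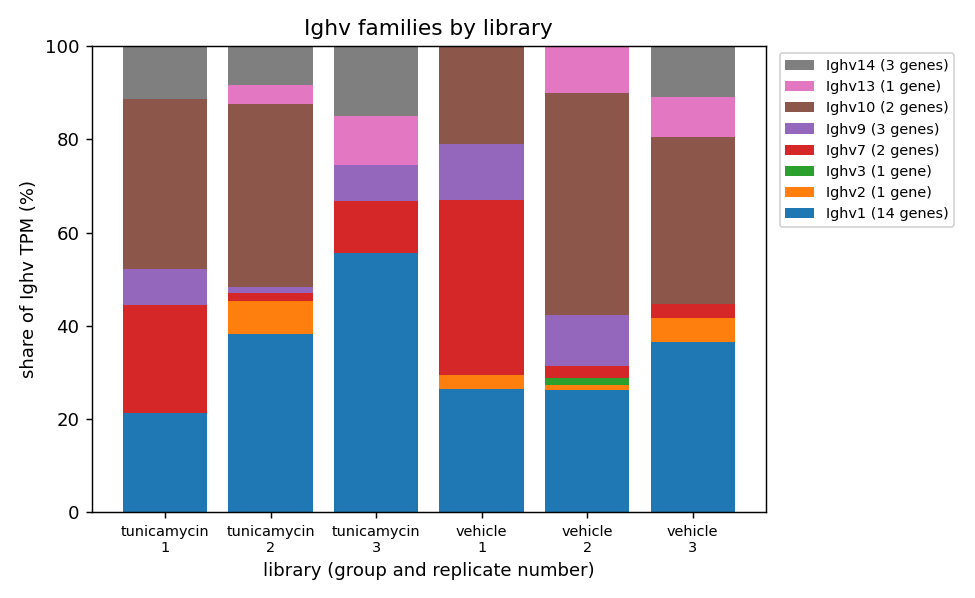
Share of Ighv TPM (%) held by each of the 8 Ighv families in the 3 tunicamycin libraries and the 3 vehicle libraries; each bar sums to 100. Ighv1 runs from 21.4 to 55.6% with tunicamycin and from 26.2 to 36.6% with vehicle, and Ighv10 is at 0 in tunicamycin replicate 3.

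Tunicamycin against vehicle was tested for single genes with edgeR's quasi-likelihood test on the estimated counts of 3613 rows that passed its filter on low counts. Of the 27 members, 5 passed that filter and 22 did not. None of the 5 passed an adjusted p of 0.05, where 0.0830% of all rows tested did. Without adjustment 0 of the 5 had a p under 0.05, against 6.42% of all rows tested. DESeq2 also called 0 of the 5, against 0.637% of the rows, and limma on log2(TPM + 1) called 0, against 0.0277%. With shares this small, a count of 0 among 5 genes is near the background. In CPM, the counts scaled to library size, 0 of the 5 were without overlap between the groups, against 12.6% of all rows tested.

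The fold changes of these 5 genes had wide intervals. Ighv10-3 had a log2 fold change of -1.15 ± 2.01 (SE; 95% interval -6.55 to 4.26; edgeR adjusted p = 0.97), and 1.08 without vehicle replicate 2. Ighv1-64 had -1.32 ± 1.18 (-4.00 to 1.37; edgeR adjusted p = 0.92), with -2.98 (unadjusted p = 0.044 in edgeR) without tunicamycin replicate 2 and -0.60 without vehicle replicate 2. Ighv1-55 had -0.93 ± 0.88 (-2.85 to 1.00; edgeR adjusted p = 0.94), with -2.20 without tunicamycin replicate 2 and -0.23 without vehicle replicate 2. Each interval spans 0 and reaches changes of several fold, so a change of that size was not detectable beyond the spread between these libraries. Ighv1-53 had -0.08 ± 1.14 (-2.57 to 2.41; edgeR adjusted p = 0.99), and 0.50 without tunicamycin replicate 1 or 0.69 without vehicle replicate 1. Ighv14-2 had 1.30 ± 1.54 (-2.13 to 4.74; edgeR adjusted p = 0.95), with 0.61 without tunicamycin replicate 2. Without vehicle replicate 3, the vehicle library that held its counts, the fit gave 6.79 (unadjusted p = 0.033, edgeR adjusted p = 0.71), a value that depends on the prior count because the other vehicle libraries were at 0. The median over the 5 was -0.93 on the log2 scale, with 1 of 5 above 0, beside a median of 0.00 and 1810 of 3613 above 0 over all rows tested. That median turned to 0.56, with 6 of 10 tested members above 0, without vehicle replicate 2. With no filter all 27 members entered, and their median was 0.48 with 14 above 0. In that fit edgeR called 0 members, against 0.237% of 6753 rows, and 6 of the 27 had an unadjusted p under 0.05, against 5.80% of the rows. Of the 27, 9 were at 0 throughout 1 group and met the member rule through the other group alone. The unadjusted p values of the fit with no filter are thus no support for a difference.

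The summed level of the 27 genes was 47.0, 66.9 and 14.4 TPM with tunicamycin, against 42.5, 121.4 and 19.2 TPM with vehicle. The means were 42.8 ± 26.5 TPM with tunicamycin and 61.0 ± 53.6 TPM with vehicle (SD, n = 3 each). On the log2 scale the difference was -0.38 (exact permutation p = 0.8, adjusted p = 0.8), and it turned to 0.28 without tunicamycin replicate 3 and to 0.32 without vehicle replicate 2. In both groups replicate 2 was highest and replicate 3 lowest, and the spread within a group exceeded the difference between groups.

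How evenly the genes were used was measured by the effective number of genes, the inverse of the summed squared TPM shares, which equals the number of genes if all are used alike. It was 5.97, 5.35 and 6.26 with tunicamycin, against 5.05, 3.88 and 4.93 with vehicle, and the groups did not overlap. The means were 5.86 ± 0.463 with tunicamycin and 4.62 ± 0.646 with vehicle (SD over 3 libraries each). The difference of 1.24 had an exact permutation p of 0.1, the smallest that 3 against 3 allow, and an adjusted p of 0.6. Over the 10 members with at least 50 counts the difference was -0.28, so its direction depended on the members with fewer counts. Counts were found in tunicamycin libraries alone for 7 members and in vehicle libraries alone for 2. Each of these met the member rule through its group alone, and all but Ighv14-3 had fewer than 50 counts. The lack of overlap in the effective number is thus no support for a difference between the groups. The leading gene's share averaged 32.7 ± 5.85% with tunicamycin and 40.3 ± 6.40% with vehicle, a difference of -7.68 points (exact permutation p = 0.3, adjusted p = 0.8). Over the 10 members with at least 50 counts that difference was 0.0198 points.

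The number of members seen was lowest in the libraries with the fewest Ighv counts. Members with counts numbered 15, 17 and 9 with tunicamycin, against 11, 16 and 9 with vehicle. When each library was thinned to 109 Ighv counts, 14.1, 15.9 and 9 members were expected with tunicamycin, against 10.8, 13.7 and 9 with vehicle. The ranges overlapped with and without thinning.

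The libraries were also compared by the overlap of their shares, the sum over genes of the smaller of 2 shares. Within the tunicamycin group the overlaps were 15.9%, 8.18% and 23.0%, and within the vehicle group 28.9%, 20.6% and 62.5%. Across the groups the 9 overlaps ran from 17.1% to 65.7%. The highest of all was between tunicamycin replicate 2 and vehicle replicate 3, which were both led by Ighv10-3, and the lowest was between tunicamycin replicates 1 and 3. The ranges within and across treatments overlapped, and the 15 values share libraries and rest on the same 27 genes.

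**Figure D3:**
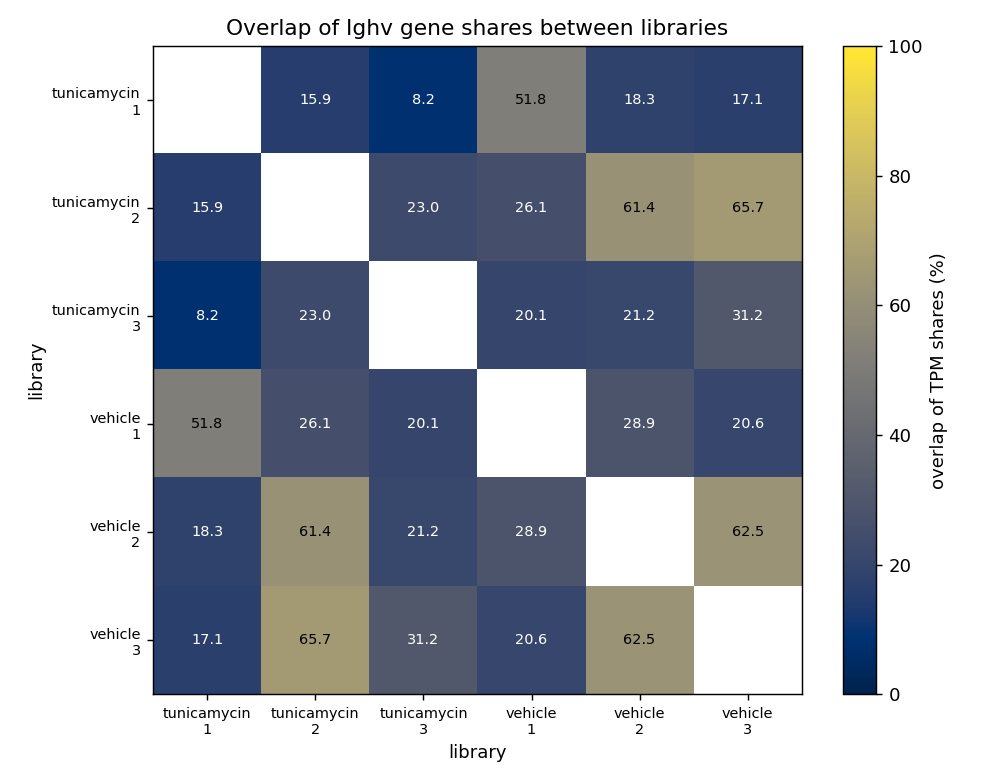
Overlap of Ighv gene shares (%) between each pair of the 6 libraries, with tunicamycin libraries before vehicle libraries on both axes; the diagonal is left blank. The overlap is 65.7% between tunicamycin replicate 2 and vehicle replicate 3, and 8.18% between tunicamycin replicates 1 and 3.

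Within each group Igha and Igkc, like the summed V genes, were highest in replicate 2 and lowest in replicate 3. Igha, the constant gene of immunoglobulin A, had 86.8, 159.6 and 21.5 TPM with tunicamycin, against 77.8, 152.4 and 18.6 TPM with vehicle. It held 94.4 to 96.4% of the summed TPM of the 6 heavy constant rows with tunicamycin and 89.3 to 95.5% with vehicle. Of the 8 heavy constant genes listed, Ighm and Ighg1 had no row among those analysed, so their part is not known. Ighg2c was the next highest of these rows, at 0.0438 to 5.49 TPM with tunicamycin and 0 to 3.68 TPM with vehicle. The summed constant level differed by 0.09 on the log2 scale (exact permutation p = 0.7, adjusted p = 0.8), and by -0.10, -0.55 and -0.74 without tunicamycin replicate 1, tunicamycin replicate 2 and vehicle replicate 3. Within replicate numbers 1, 2 and 3 it differed by 0.083, 0.083 and 0.092, with an exact sign-flip p of 0.25, the smallest that 3 pairs allow. Set against Igha, the summed Ighv TPM was 54.2%, 41.9% and 67.0% with tunicamycin, against 54.6%, 79.7% and 102.8% with vehicle. Ighe was at 0 in all 6 libraries, and the 18 rows of joining and diversity segments were at 0 as well.

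Of the light chains, which pair with the heavy chain in an antibody, Igkc had 105.3, 262.6 and 26.98 TPM with tunicamycin, against 104.0, 245.0 and 38.2 TPM with vehicle. Iglc1, the next light constant gene, had 10.5, 6.38 and 0.0855 TPM with tunicamycin, against 12.04, 1.87 and 0.612 TPM with vehicle. The summed light chain V level was 174.9, 376.5 and 43.5 TPM with tunicamycin, against 197.3, 413.7 and 80.2 TPM with vehicle. Light chain V genes, too, changed their leader within a group. Igkv6-23, Igkv4-57-1 and Igkv9-120 led the tunicamycin replicates at 19.3%, 15.5% and 13.1%, while Igkv15-103, Igkv4-57-1 and Igkv19-93 led the vehicle replicates at 18.8%, 16.2% and 21.5%. Igkv10-96, the highest on average, had 21.5, 53.9 and 4.25 TPM with tunicamycin, against 29.7, 51.2 and 6.97 TPM with vehicle. Of the 36 tested genes among the constant, light chain, B cell and plasma cell lists, edgeR called 0 and 0 had an unadjusted p under 0.05, against 6.42% of all rows tested, and DESeq2 and limma called 0. Their median log2 fold change was -0.09, and it ran from -0.65 without tunicamycin replicate 2 to 0.32 without tunicamycin replicate 3.

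The sample was checked against markers of the cells it could hold. T cell genes were high and even, with Cd3e, a subunit of the T cell receptor complex, at 545 to 590 TPM with tunicamycin and 575 to 626 TPM with vehicle, and Trbc2 at 1428 to 1578 TPM with tunicamycin and 1338 to 1437 TPM with vehicle. Cd4 was not analysed here. Of 17 B cell markers listed, 4 had a row among those analysed, so the level of B cell RNA is only partly seen. These 4 rows summed to 0.745 to 1.20 TPM with tunicamycin and 0.886 to 1.22 TPM with vehicle. Most of it was Cd79a, a part of the B cell receptor complex. Vpreb3 and Rag1 were at 0 in all 6 libraries.

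Among plasma cell markers, Jchain and Derl3 were highest in replicate 2 and lowest in replicate 3 of each group. The other plasma cell rows did not keep that order in both groups. Fkbp11 was highest in replicate 3 of each, at 0.624 TPM with tunicamycin and 0.827 TPM with vehicle. Mzb1 was highest in vehicle replicate 1 at 1.02 TPM and was at 0 in vehicle replicate 2. Jchain, which joins immunoglobulin A into dimers, had 14.5, 30.6 and 4.61 TPM with tunicamycin, against 14.1, 30.98 and 2.74 TPM with vehicle. Of 14 plasma cell markers listed, 7 had a row among those analysed. These 7 rows summed to 21.6 to 47.3 TPM with tunicamycin and 17.5 to 51.0 TPM with vehicle, of which Creld2 made up 12.01 to 13.99 TPM with tunicamycin and 11.4 to 15.02 TPM with vehicle. Lyz2, of macrophages and monocytes, had 7.11, 10.4 and 3.55 TPM with tunicamycin and 7.30, 8.52 and 2.94 TPM with vehicle. The part of other cells in the V gene differences between libraries was not tested. Pou2af1, a coactivator of octamer factors at immunoglobulin promoters, was at 2.35 to 3.06 TPM with tunicamycin and 1.78 to 2.83 TPM with vehicle. Prkdc, a kinase of the joining step that also repairs breaks in all cells, was at 3.42 to 4.17 TPM with tunicamycin and 2.86 to 3.23 TPM with vehicle, with an unadjusted p of 0.0093 and an edgeR adjusted p of 0.52. Natural killer cell markers summed to 11.8 to 16.6 TPM with tunicamycin and 9.03 to 11.3 TPM with vehicle, and red cell markers to 1.10 to 5.02 TPM with tunicamycin and 0.937 to 7.64 TPM with vehicle. edgeR called 0 of the 6 T cell, 2 macrophage, 4 natural killer and 4 red cell genes tested, and Cd3e and Gzma had unadjusted p values of 0.032 and 0.025 and edgeR adjusted p values of 0.68 and 0.65.

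**Figure D4:**
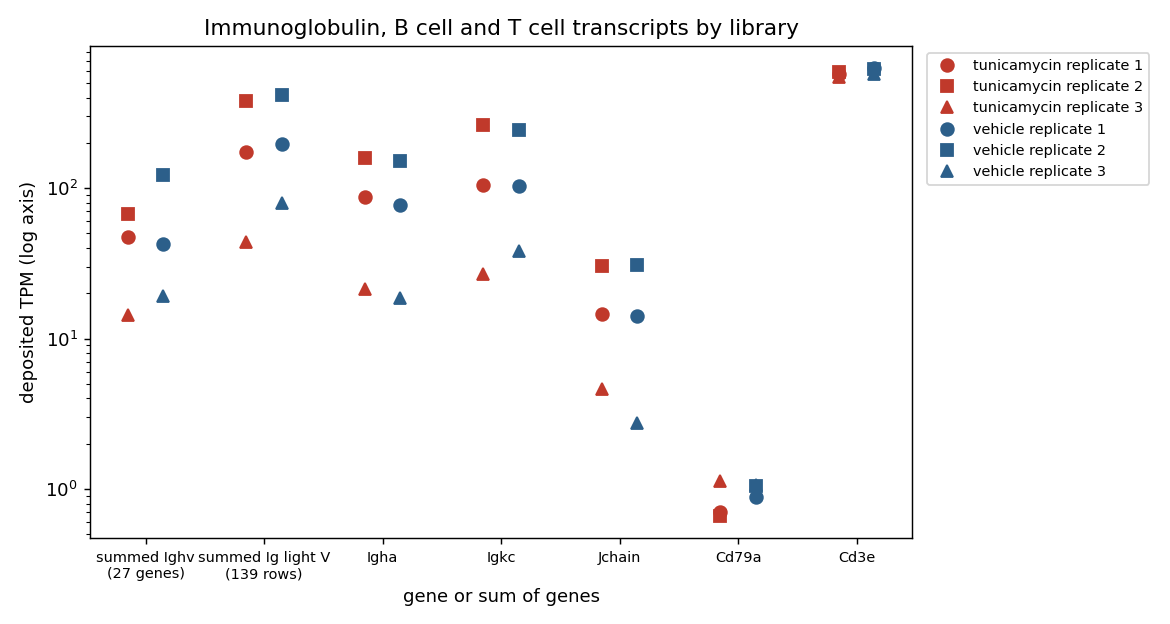
Deposited TPM (log axis) of the summed Ighv genes, the summed light chain V genes, Igha, Igkc, Jchain, Cd79a and Cd3e; red symbols are the 3 tunicamycin libraries and blue symbols the 3 vehicle libraries, with shapes by replicate number. Igha runs from 21.5 to 159.6 TPM with tunicamycin and from 18.6 to 152.4 TPM with vehicle, while Cd3e stays between 545 and 626 TPM in all 6.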

How the data were processed

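RNA of 6 libraries, 3 with tunicamycin and 3 with vehicle, was sequenced as paired 150 bp reads from libraries made of 200 ng of total RNA, per the labels' protocols. Salmon, DESeq2, bcl2fastq and the mouse build GRCm39 are listed without versions or roles, per the submitters' processing notes. The authors deposited estimated counts, which were rounded to whole numbers for the count tests, and TPM, which were used as deposited for levels and shares. Symbols, positions and sequences came from the GENCODE M21 annotation (GRCm38) by Ensembl ID, and 13627 of 13685 rows had a symbol.

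Counts were tested with edgeR 4.0.16 in R 4.3.3 (TMM scaling, filterByExpr, quasi-likelihood test with Benjamini-Hochberg adjustment over 3613 rows). DESeq2 1.42.0 and limma 3.58.1 on log2(TPM + 1) or log2(TPM + 0.1) were alternatives, beside other scalings, no filter, a replicate block and leaving out each library. The edgeR fit was tested on simulated counts, and the evenness measures and the permutation and sign-flip tests on small made-up inputs. Summary measures were compared with two-sided exact permutation tests over 20 arrangements. SciPy 1.17.1 was used for the Clopper-Pearson intervals and the thinning. TPM is scaled by effective length, and the counts per TPM varied between members of 1 library by 1.78 to 2.29 times. The members and lists were chosen with earlier results of these data known. Genes named were the 15 members with the highest mean share, each library's leader, each family's leading member, the members next to the count limit, and genes of the other lists. Those list genes were not always the 2 highest. On average Il7r was above Cd3e among T cell genes, and Prf1 was above Gzma among natural killer genes.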

Additional observations from a re-analysis of the deposited data

How the results depend on the processing

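Of 171 comparisons with an alternative, 153 were labelled the same, 11 reversed and 7 counts or values moved. The same meant the same sign for summary measures, and the same sign and side of the threshold for single-gene fold changes. For numbers called it meant a similar number, and for the overlap a change below the SD of the same-numbered pairs. The same label includes 13 comparisons of Ighv members called and 13 of the combined lists, all of them 0 against 0. Leaving out 1 library at a time, the difference between tunicamycin and vehicle ran from -1.01 to 0.32 for the summed Ighv level (log2), from -0.74 to 0.91 for the summed heavy constant level (log2), from 0.87 to 1.497 for the effective number of genes, and from -11.0 to -4.01 points for the leading gene's share. It ran from -0.0781 to 17.7 points for the genes farther from the D segments, from 0.0135 to 17.1 points for the Ighv1 family, and, as log2 fold changes, from -3.93 to 1.08 for Ighv10-3, -1.02 to 0.69 for Ighv1-53, -2.98 to -0.60 for Ighv1-64, -2.20 to -0.23 for Ighv1-55 and 0.61 to 6.79 for Ighv14-2. Over members with at least 50 counts the effective number differed by -0.28 and the leading share by 0.0198 points. Where a value reversed, the cause was not tested. The number of rows called was 3 and became 16 with no filter, 23 with DESeq2, 1 with limma on log2(TPM + 1), 36 with the replicate block, and 1 to 5 without 1 library, the lowest without vehicle replicate 2 and the highest without vehicle replicate 3, while 0 Ighv members were called under each of these. The same-numbered libraries of the groups correlated in their deviations at 0.037, 0.187 and 0.107 over 3613 genes. Pairs with other numbers correlated at -0.133 to 0.028. Not every same-numbered pair reached the limit of 0.1, so the unpaired fit was kept as the main one. The labels do not say whether a number marks a shared source, so pairing cannot be settled here. Over the 27 members' log2(TPM + 1) the same-numbered libraries correlated at 0.498, 0.38 and 0.191, but tunicamycin replicate 2 correlated best with vehicle replicate 3 (0.695). Within the replicate numbers, tunicamycin was above vehicle in 3 of 3 for the summed heavy constant level (0.083, 0.083 and 0.092 on the log2 scale). The same held for the effective number (0.92, 1.48 and 1.33). The leading gene's share was below in 3 of 3 (-6.97, -8.40 and -7.66 points). Each of these measures had an exact sign-flip p of 0.25, the smallest that 3 pairs allow. The summed Ighv level was mixed, at 0.15, -0.86 and -0.41 on the log2 scale (exact sign-flip p = 0.5). The block changed no call of a member (Ighv14-2 had a log2 fold change of 1.97 and Ighv10-3 of -1.51 with it). Shares overlapped by 48.1 ± 15.5% (mean ± SD; range 31.2 to 61.4%) between libraries of the same number. That mean was 20.8 points above the other pairs. With 1 library left out the gap ran from 12.8 to 36.4 points, the highest without vehicle replicate 3. Pairs with other numbers reached 62.5% within a group and 65.7% across the groups, so the ranges overlapped. Counts of 109 to 525 Ighv reads per library limit all shares. The overlap without each library, scaling without immunoglobulin rows, the alternatives for the combined marker lists and an effective number corrected for counts, which differed by 1.38, were chosen after seeing the data.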
